A study of Mus musculus with 16 samples.

Results

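The hippocampal expression of 10 circadian clock and clock output genes was followed in 16 mice. The genes were Per1, Per2, Per3, Dbp, Nr1d1, Nr1d2, Tef, Ciart, Arntl and Clock, taken by name from a table of 55335 genes. All 10 were among the 16475 genes that had enough reads to be tested. The mice fell into 4 groups of 4 and were all 10 months old when their hippocampi were taken, after a pump had infused the lateral ventricle for 28 days. They are described as female in the study's methods. WT-D mice, of the C57BL/6J x 129S1 background strain, and 3xTg-D mice received vehicle, which was 0.8% DMSO in artificial cerebrospinal fluid. WT-S and 3xTg-S mice received 80 µM of an inhibitor of stearoyl-CoA desaturase (SCD), the enzyme that makes monounsaturated fatty acids, in the same vehicle. The treatment labels call the inhibitor Cayman 10566, whereas the protocol description common to the libraries gives ab142089. The 3xTg line models familial Alzheimer's disease. It carries human APPSwe and tauP301L transgenes, driven according to the study's methods by the neuron-specific Thy1.2 element. WT mice lack every modified allele of the line, so a genotype comparison cannot separate them. Each library was 1 hippocampal RNA sample, and the labels number them 1 to 4 within each group without saying what the number marks.

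The mammalian clock is a loop of transcription that runs once a day in most cells. CLOCK and BMAL1, the product of Arntl, bind E-box sequences and switch on the Per and Cry genes, whose proteins then block CLOCK and BMAL1. The same activators drive Nr1d1 and Nr1d2, which encode the repressors REV-ERBα and REV-ERBβ of Arntl, and the output genes Dbp, Tef and Ciart. Arntl therefore peaks at about the opposite time of day to Dbp, Nr1d1 and Ciart, and comparing such genes is a common way to judge the hour at which tissue was taken. The mice were kept in a reversed light and dark cycle. The hour of dissection is not given in the sources used here.

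Motifs that clock proteins bind are shown for the members that held one near a start site. Windows from 250 bases before to 50 bases after a start site (RefSeq, GRCm38.p6) were found for 9 of the 10 genes, with 14 start sites in all. Both strands were searched for the E-box CACGTG, its variant CACGTT, the D-box TTATGTAA or TTACGTAA that DBP and TEF bind, the core TAGGTCA of the element that ROR and REV-ERB proteins bind, and the cAMP response element TGACGTCA. No hits overlapped in the windows of these genes. Ciart had 3 E-boxes, at chr3:95882255-95882356 on the minus strand. Per1 had 1, at chr11:69098771-69098800 on the plus strand, and Tef had 1 at each of 2 start sites, at chr15:81802534-81802563 and chr15:81811264-81811293 on the plus strand. Nr1d1 had the E-box variant, at chr11:98775388-98775417 on the minus strand. Per3 had 2 D-boxes, at chr4:151044804-151044882 on the minus strand, and Arntl had the ROR core within its first transcribed bases, at chr7:113207529-113207558 on the plus strand. Capitals mark the motif, and each sequence reads 5′ to 3′ in the direction of transcription.
Ciart: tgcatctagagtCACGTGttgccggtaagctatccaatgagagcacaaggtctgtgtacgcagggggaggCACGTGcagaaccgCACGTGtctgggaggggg
Per1: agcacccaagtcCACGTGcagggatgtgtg
Tef, upstream start: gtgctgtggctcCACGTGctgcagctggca
Tef, downstream start: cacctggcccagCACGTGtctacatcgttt
Nr1d1: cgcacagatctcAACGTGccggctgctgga
Per3: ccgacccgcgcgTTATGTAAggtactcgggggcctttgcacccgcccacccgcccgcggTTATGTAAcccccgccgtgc
Arntl: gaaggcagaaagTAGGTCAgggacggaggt
Among the 32851 windows of the reference table, 7.15% held an E-box and 0.0883% held 3 or more, as the Ciart window did. The E-box variant was in 4.68% of windows, the ROR core in 2.61%, and the cAMP response element, which no member had, in 1.79%. D-boxes were in 1.06% of windows, and 0.0244% held 2 or more, as the Per3 window did. None of these letters was in the windows of Dbp, Clock and Nr1d2, and Per2 had no window to search.

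Reads on genes numbered 15413385 to 23590149 per mouse, and 7.82 to 15.1% of uniquely placed reads lay outside annotated genes. Values below are CPM, read counts scaled to a common library size after normalization. The tissue carried hippocampal neuron markers, with a summed level of 4249 to 5486 CPM over 6 markers, all 6 of which were tested. The neuropeptides of the suprachiasmatic nucleus, the brain's central clock, were close to 0 for Avp, Nms and Prok2, each below 1 CPM in every mouse. Of the 4 markers, 1 (Vip) was at 17.3 to 32.3 CPM. The 4 summed to 18.1 to 23.7 CPM in WT-D, 27.8 to 32.6 CPM in 3xTg-D, 17.8 to 26.7 CPM in WT-S and 25.2 to 32.0 CPM in 3xTg-S mice. These sums were nearly all Vip, so they do not speak for the list. The WT-D and 3xTg-D ranges did not overlap, while the WT-S and 3xTg-S ranges did, and the cause was not tested. Choroid plexus markers, 5 of 7 of them tested, summed to 27.8 to 729 CPM in WT-D and 27.6 to 292 CPM in WT-S mice. Their sum was 28.4 to 45.8 CPM in 3xTg-D and 28.7 to 36.8 CPM in 3xTg-S mice, so all groups overlapped. In whole tissue, fewer cells of a type and less RNA per cell cannot be told apart.

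Per transcript length, Tef was the most abundant of the 10 genes and Ciart the least. Over the 16 mice the mean in TPM, counts scaled by exon length and library total, was 161 ± 12.3 (SD) for Tef and 102 ± 7.39 for Nr1d2. The next pair overlapped in mean ± SD, with 63.9 ± 9.99 TPM for Nr1d1 and 60.3 ± 10.2 TPM for Dbp. Clock had 39.5 ± 4.31 TPM. Per1, at 28.4 ± 3.86 TPM, and Per2, at 26.7 ± 3.65 TPM, also overlapped. So did the lowest 3 genes, Per3 with 16.6 ± 4.29 TPM, Arntl with 14.3 ± 1.68 TPM and Ciart with 12.7 ± 2.80 TPM. The genes were measured in the same mice, and no gene was tested against another. Raw counts ranged from 96 reads for Ciart to 8908 reads for Tef in single mice, so counting error is widest for Ciart.

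Dbp, a transcription factor that carries the clock's rhythm to metabolic genes, was lower in 3xTg-S than in 3xTg-D mice. Its levels were 58.8, 57.5, 47.5 and 55.6 CPM in 3xTg-D mice 1 to 4 and 46.0, 38.6, 36.4 and 40.3 CPM in 3xTg-S mice 1 to 4. Every 3xTg-S mouse was below every 3xTg-D mouse. WT-D mice had 50.4, 55.9, 48.9 and 38.6 CPM, and WT-S mice had 55.2, 65.7, 44.8 and 37.7 CPM. The WT groups overlapped over most of their range, and mouse 4 was the lowest in each. Between 3xTg-S and 3xTg-D, Dbp fell by 0.45 on the log2 scale (95% interval -0.65 to -0.24), past the study's threshold, which is an unadjusted p of at most 0.01. It stayed between -0.51 and -0.41 and past that threshold when any 1 of the 8 mice was left out. After adjustment over all tested genes it did not pass (edgeR adjusted p = 0.722), although it did with the replicate number as a block (adjusted p = 0.0225), a pairing that the labels do not give. In WT mice the inhibitor's log2 fold change of Dbp was 0.07 (-0.30 to 0.44, adjusted p = 1.000), and its sign turned without WT-D mouse 4 or WT-S mouse 2 and with the share of reads outside genes as a covariate (-0.10). The difference between the effects in the 2 genotypes was -0.51 (-0.95 to -0.08, adjusted p = 0.788 in edgeR), which did not pass the unadjusted threshold. It passed when WT-S mouse 4 was left out, at -0.65, without the filter on low counts, at -0.55, and with the replicate number as a block, at -0.50. Genotype differences of Dbp were 0.18 (-0.06 to 0.42, adjusted p = 0.535) in vehicle and -0.35 (-0.70 to -0.0033, adjusted p = 0.458) in inhibitor mice, neither past the threshold. The first was 0.08 without WT-D mouse 4 and 0.10 with the share of reads outside genes as a covariate. The second was -0.21 without WT-S mouse 2, and it passed without WT-S mouse 4 (-0.47) and without the filter on low counts (-0.35).

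The exons of Dbp (chr7:45705088-45710203, GRCm38) share 539 bases, 18.0% of their length, with Sphk2 on the other strand, and the strand setting of the counting is not stated. Sphk2, which encodes a sphingosine kinase, averaged 18.9 CPM and had a log2 fold change of 0.04 (adjusted p = 0.880) in the same comparison. The deposited counts keep ambiguous reads, which could not be given to a single gene, on a summary line outside the genes. How many such reads fell in these bases was not examined. Markers of ependyma, all 3 of 3 tested, had a lower sum in 3xTg-S than in 3xTg-D mice. They summed to 9.09 to 15.5 CPM in 3xTg-D and 5.93 to 7.72 CPM in 3xTg-S mice, without overlap, and none of the 3 was at 0 in any mouse. The sum was 12.5 to 16.2 CPM in WT-D and 10.0 to 15.5 CPM in WT-S mice, also above 3xTg-S. Its r with Dbp across mice was 0.27 after group means were removed. The part of these markers in the result was not tested. Choroid plexus markers (28.4 to 45.8 and 28.7 to 36.8 CPM), thalamic markers (30.004 to 36.3 and 26.5 to 32.1 CPM, 3 of 3 tested) and erythroid markers (29.6 to 72.7 and 29.6 to 122 CPM, 4 of 4 tested) overlapped between these groups. With the share of reads outside genes as a covariate, the Dbp difference was -0.47.

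**Figure D1:**
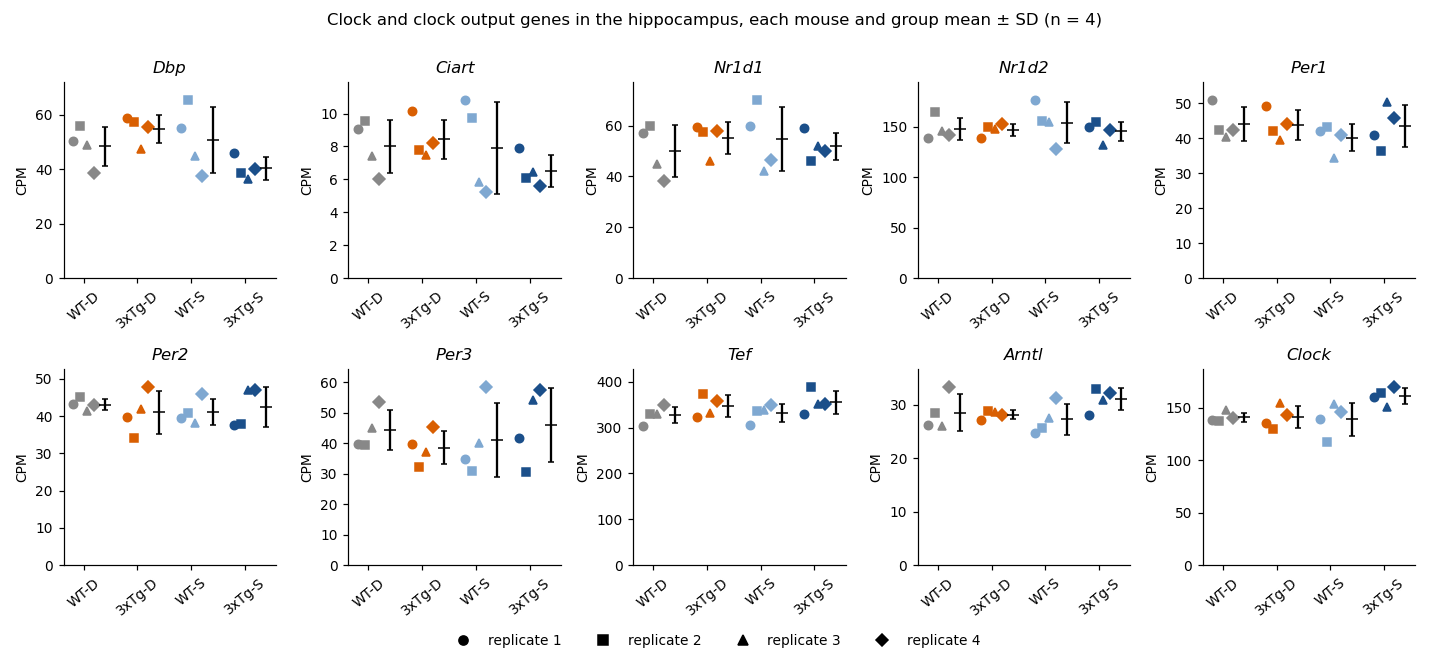
CPM of the 10 genes in each mouse, by group. Symbols give the replicate number, and the bar beside each group is the mean ± SD of 4 mice. Dbp in 3xTg-S (36.4 to 46.0 CPM) lies below 3xTg-D (47.5 to 58.8 CPM), while all other genes overlap between these 2 groups.

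Ciart encodes CHRONO, a repressor of CLOCK and BMAL1. Its levels were 10.2, 7.80, 7.48 and 8.23 CPM in 3xTg-D mice 1 to 4 and 7.91, 6.11, 6.42 and 5.62 CPM in 3xTg-S mice. WT-D mice had 9.04, 9.56, 7.41 and 6.03 CPM, and WT-S mice had 10.8, 9.74, 5.82 and 5.21 CPM. The 3xTg groups overlapped only through 3xTg-S mouse 1, which lay above 3xTg-D mice 2 and 3, and mouse 1 or 2 was the highest in every group. The 3xTg-S vs 3xTg-D log2 fold change was -0.37 (-0.69 to -0.06, edgeR adjusted p = 0.722), short of the threshold. It passed with the replicate number as a block (-0.37) and without 3xTg-S mouse 1 (-0.48).

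Nr1d1 encodes REV-ERBα, a repressor of Arntl. Its levels were 57.1, 59.7, 44.8 and 38.0 CPM in WT-D mice. 3xTg-D mice had 59.6, 57.5, 45.9 and 57.7 CPM, WT-S mice had 59.8, 70.2, 42.3 and 46.6 CPM, and 3xTg-S mice had 59.1, 45.9, 52.1 and 50.1 CPM. All 4 groups overlapped, and mouse 1 held a narrow range of 57.1 to 59.8 CPM across groups. The exons of Nr1d1 share 263 bases, 8.55% of their length, with Thra on the other strand. Thra, the thyroid hormone receptor gene, averaged 666 CPM. As for Dbp, ambiguous reads were kept on the summary line, and their number in these bases was not examined. Nr1d2, its close relative, ranged from 128 to 177 CPM with group means between 146 ± 9.54 (3xTg-S) and 154 ± 20.3 CPM (WT-S, SD, n = 4 each). Neither passed the threshold in any comparison.

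The Per genes encode the negative limb of the loop. Per3 was the most variable of the 3, with 39.7, 39.4, 45.2 and 53.5 CPM in WT-D mice. 3xTg-D mice had 39.7, 32.2, 37.1 and 45.2 CPM, WT-S mice had 34.8, 30.9, 40.02 and 58.6 CPM, and 3xTg-S mice had 41.7, 30.7, 54.1 and 57.4 CPM. Mouse 4 was the highest and mouse 2 the lowest in every group. Per1 ranged from 34.4 to 51.1 CPM, with group means between 40.2 ± 3.97 (WT-S) and 44.1 ± 4.75 CPM (WT-D). Per2 ranged from 34.2 to 47.9 CPM, with group means between 40.9 ± 5.65 (3xTg-D) and 43.1 ± 1.54 CPM (WT-D). No Per gene passed the threshold in any comparison. The largest difference between 3xTg-S and 3xTg-D among them was that of Per3, 0.25 (-0.14 to 0.65, edgeR adjusted p = 0.735). It was 0.02 with the share of reads outside genes as a covariate, and 0.12 to 0.41 when a mouse was left out, past the threshold without 3xTg-S mouse 2.

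Tef, a transcription factor of the same PAR bZIP family as Dbp, had the highest counts and the smallest relative spread. Its levels were 304, 329, 329 and 349 CPM in WT-D mice. 3xTg-D mice had 322, 374, 333 and 359 CPM, WT-S mice had 305, 335, 338 and 349 CPM, and 3xTg-S mice had 329, 389, 351 and 352 CPM. Mouse 1 was the lowest in every group. Its log2 interval in 3xTg-S vs 3xTg-D was -0.13 to 0.20, and it passed the threshold in no comparison.

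Of the 2 activators, Clock was higher in 3xTg-S than in WT-D mice. Its levels were 138, 138, 148 and 140 CPM in WT-D and 160, 164, 151 and 170 CPM in 3xTg-S mice. Every 3xTg-S mouse was above every WT-D mouse. 3xTg-D mice had 135, 130, 154 and 143 CPM and WT-S mice 139, 117, 154 and 146 CPM, so the highest mouse of each of these groups reached into the 3xTg-S range. The 3xTg-S vs WT-D log2 fold change was 0.18 (0.05 to 0.30, edgeR adjusted p = 0.170), past the unadjusted threshold. The call of Clock was lost when WT-D mouse 1, 2 or 4 or 3xTg-S mouse 1 or 4 was left out, with log2 fold changes between 0.16 and 0.18 in those fits. It was also lost without the filter on low counts (0.17), with all 16 mice fitted together (0.20) and with the replicate number as a block (0.18). Clock differed by 0.20 between 3xTg-S and 3xTg-D (0.04 to 0.35) and by 0.20 between 3xTg-S and WT-S (0.01 to 0.39), neither past the threshold. The first passed without 3xTg-D mouse 3, at 0.24. Arntl had 26.3, 28.5, 26.0 and 33.4 CPM in WT-D mice. 3xTg-D mice had 27.1, 28.9, 28.7 and 28.0 CPM, WT-S mice had 24.8, 25.7, 27.6 and 31.3 CPM, and 3xTg-S mice had 28.2, 33.1, 30.9 and 32.3 CPM. The groups overlapped, with 3xTg-S mouse 1 inside the 3xTg-D range. The 3xTg-S vs 3xTg-D log2 fold change of Arntl was 0.14 (-0.01 to 0.30, edgeR adjusted p = 0.722).

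Few of the 10 genes were differentially expressed genes (DEGs), called where the unadjusted p was at most 0.01. In 3xTg-S vs 3xTg-D, 1 of 10 was a DEG, Dbp, where 0.904% of all tested genes were DEGs. In 3xTg-S vs WT-D, 1 of 10 was a DEG, Clock, against 5.69% of all genes. No member was a DEG in 3xTg-D vs WT-D, where 4.91% of genes were, in 3xTg-S vs WT-S (4.26%), in WT-S vs WT-D (0.188%) or in the interaction of genotype and inhibitor (0.595%). At an unadjusted p under 0.05, edgeR gave 0 members in 3xTg-D vs WT-D (12.6% of all genes), 2 in 3xTg-S vs WT-S (10.7%), 0 in WT-S vs WT-D (2.25%) and 1 in the interaction (4.98%), beside 3 in 3xTg-S vs 3xTg-D (6.33%) and 2 in 3xTg-S vs WT-D (13.1%). In the 4 tests with no DEG among the members, DESeq2's likelihood ratio test also called 0 at 0.01. Without the block, no member passed an adjusted p of 0.05 in edgeR in any of the 6 tests, the lowest being 0.170. With the replicate number as a block, Dbp in 3xTg-S vs 3xTg-D passed it. The median log2 fold changes over the members were 0.01 in 3xTg-S vs 3xTg-D and 0.06 in 3xTg-S vs WT-S, against 0.01 and 0.00 over all genes. Mice of the 2 groups did not overlap for 1 of 10 members in 3xTg-S vs 3xTg-D (3.16% of all genes), for 1 in 3xTg-S vs WT-D (9.55%), and for 0 in 3xTg-D vs WT-D (8.17%), 3xTg-S vs WT-S (6.75%) and WT-S vs WT-D (1.48%). The 5 pairwise comparisons share groups, so Dbp in 3xTg-S enters several of them.

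**Figure D2:**
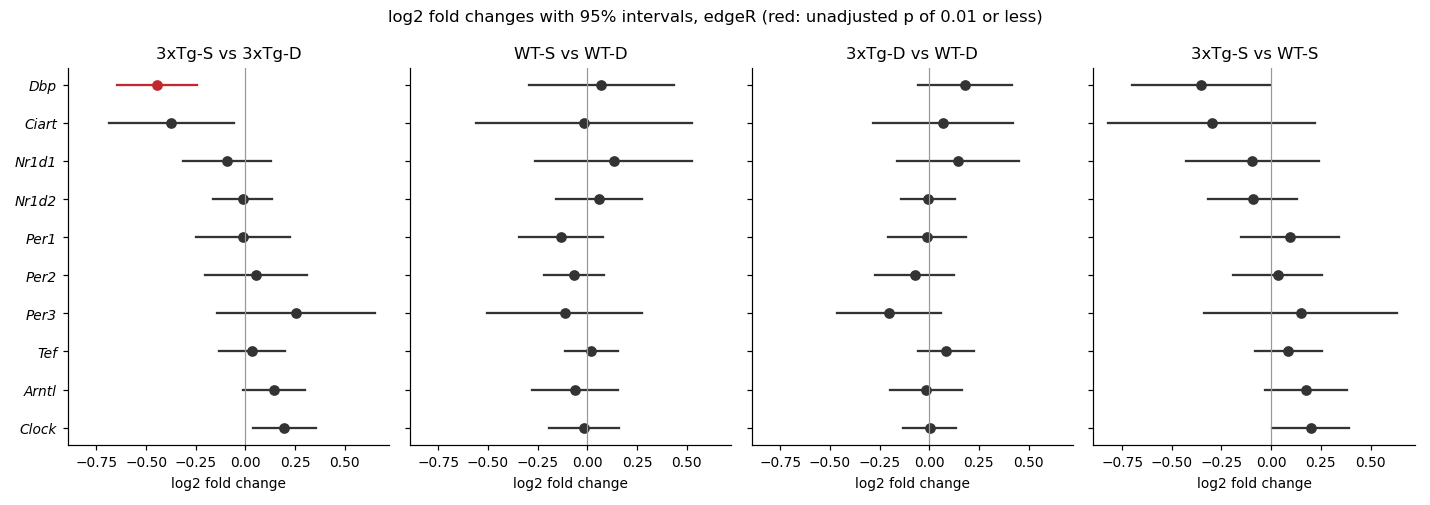
log2 fold changes of the 10 genes in 4 comparisons, with 95% intervals from edgeR (4 mice per group), on one axis. Dbp in 3xTg-S vs 3xTg-D (-0.45, in red) is the only point past an unadjusted p of 0.01, and intervals of Ciart and Clock in that panel also leave out 0.

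Between 3xTg-S and 3xTg-D, point values of the genes set against Arntl had both signs, and most of their intervals included 0. Dbp and Ciart were lower in 3xTg-S than in 3xTg-D mice, with intervals below 0. Nr1d1 (interval -0.31 to 0.13), Nr1d2 (-0.16 to 0.13) and Per1 (-0.25 to 0.22) had point values below 0 and intervals that included 0. Per2 (-0.20 to 0.31), Per3 (-0.14 to 0.65) and Tef (-0.13 to 0.20) had point values above 0 and intervals that included 0. The opposed genes Arntl and Clock had point values above 0. In all, 5 members were higher and 5 lower, the lower being Dbp, Ciart, Nr1d1, Nr1d2 and Per1. Only the Dbp value passed the test, and the difference between members was not tested.

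Within groups, Dbp, Ciart and Nr1d1 were high in the mice in which Arntl was low. This was measured over all 16 mice on log2 CPM after each group's mean was subtracted, with exact permutation of mice within groups. Pearson's r with Arntl was -0.79 for Ciart (exact p = 0.00255), -0.76 for Dbp (p = 0.00838) and -0.66 for Nr1d1 (p = 0.0361). Tef went with Arntl instead, at r = 0.71 (exact p = 0.00473). The other 4 of the 8 relations computed were 0.45 for Per3, -0.40 for Nr1d2, -0.26 for Per1 and 0.24 for Per2, with exact permutation p between 0.128 and 0.373. An exact p of 0.01 or less was reached by 3 of the 8, against 1.76% of all tested genes. Adjusted over all genes, the permutation p of the 8 relations lay between 0.467 and 0.834. Spearman's rho was -0.80 for Ciart (exact p = 0.00169), 0.72 for Tef (exact p = 0.00598), -0.70 for Dbp (exact p = 0.0121) and -0.68 for Nr1d1 (exact p = 0.0172), with adjusted p of 0.526 to 0.714.

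The count of relations depended on single mice. Without WT-D mouse 4 and 3xTg-S mouse 2, the 2 farthest from the median Arntl level of all mice, r was -0.78 for Ciart, -0.69 for Dbp, 0.64 for Tef and -0.48 for Nr1d1, and no relation reached an exact p of 0.01. The same count was 0 when WT-D mouse 4 alone or 3xTg-S mouse 1 alone was left out. Within genotypes, with 8 mice each, r with Arntl was -0.77 for Ciart in WT mice (exact p = 0.0347) and -0.87 in 3xTg mice (exact p = 0.0122). For Dbp it was -0.80 (exact p = 0.0365) and -0.60 (exact p = 0.174). For Nr1d1 it was -0.64 (exact p = 0.146) and -0.74 (exact p = 0.0260). For Tef it was 0.79 (exact p = 0.0556) and 0.75 (exact p = 0.0486). After the means of the replicate numbers were also removed, r was -0.92 for Dbp, -0.78 for Nr1d1, -0.73 for Ciart and 0.48 for Tef.

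**Figure D3:**
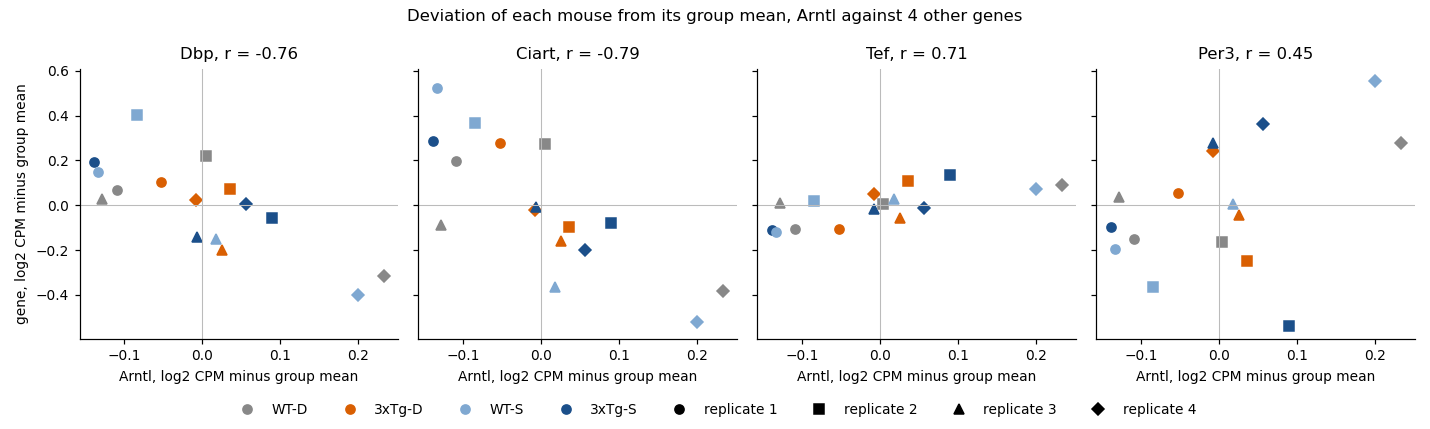
Deviation of each mouse from its group mean in log2 CPM, Arntl on the x axis and Dbp, Ciart, Tef or Per3 on the y axis, 16 mice, coloured by group with symbols for the replicate number. Dbp (r = -0.76) and Ciart (r = -0.79) slope down, Tef (r = 0.71) slopes up, and the 2 mice farthest to the right are WT-D mouse 4 and WT-S mouse 4.

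Among the members themselves, Dbp, Ciart and Nr1d1 formed the tightest trio, as a description over the same 16 mice. Pairwise r was 0.88 for Dbp with Nr1d1, 0.87 for Dbp with Ciart and 0.86 for Ciart with Nr1d1. Per2 and Per3 went together (0.69) but not with Dbp, at -0.28 and -0.62. After replicate number means were removed, r was 0.34 for Per2 with Per3, 0.33 for Dbp with Per2 and -0.07 for Dbp with Per3. Clock was lower where Nr1d1 was higher (r = -0.72). The ratio of Dbp to Arntl, in CPM, spanned 1.15 to 2.56 over all mice, lowest in WT-D mouse 4 and highest in WT-S mouse 2. In 3xTg-D mice it was 2.17, 1.99, 1.66 and 1.98, and in 3xTg-S mice 1.63, 1.17, 1.18 and 1.25. These 2 groups did not overlap in the ratio, which contains Dbp and so is no separate evidence. WT-D mice had 1.91, 1.96, 1.88 and 1.15 and WT-S mice 2.23, 2.56, 1.63 and 1.20.

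**Figure D4:**
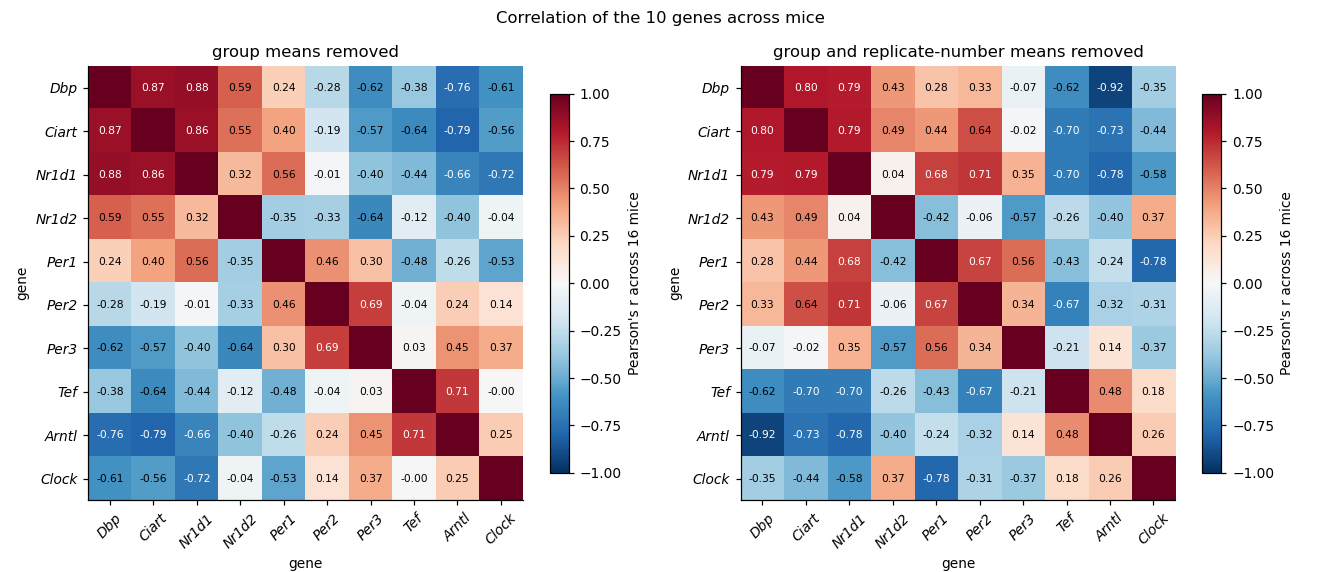
Pearson's r between each pair of the 10 genes across 16 mice in log2 CPM, with group means removed (left) and with group and replicate number means removed (right). Dbp, Ciart and Nr1d1 form a red block (0.86 to 0.88 on the left) and are blue against Arntl in both panels.

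The replicate number held much of the remaining spread of Per3 and Tef, where a share of 25% would be held by chance. For Per3, 81.0% of the variance within groups lay between the 4 numbers (exact permutation p = 0.000217, adjusted over all genes 0.0275), and for Tef 77.4% (exact p = 0.00564, adjusted 0.0595). Ciart followed with 66.4% (exact p = 0.0108), Arntl with 58.9% (exact p = 0.0368), Dbp with 53.5%, Nr1d1 with 52.1%, Per2 with 44.8%, Clock with 41.0%, and Per1 and Nr1d2 with 23.2% each. An exact p of 0.01 or less was reached by 2 of the 10 members, against 13.1% of all tested genes, and the median share was 52.8% over the members and 41.7% over all genes. Over all genes, 2157 reached that p. Mice numbered 4 had a mean Per3 of 53.7 ± 6.05 CPM and mice numbered 2 of 33.3 ± 4.11 CPM (SD, n = 4, 1 mouse per group). For Ciart the mean was 9.49 ± 1.29 CPM in mice numbered 1 and 6.27 ± 1.35 CPM in mice numbered 4.

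A measure of the libraries moved with Per3. The share of reads outside genes was 10.9 to 15.1% in mice numbered 4 and 7.82 to 10.5% in mice numbered 2, and its r with Per3 over the 16 mice was 0.89 after group means were removed. For Dbp this r was -0.35, for Ciart -0.31 and for Arntl 0.19. What the number marks is not given, and its part in these values was not tested.

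**Figure D5:**
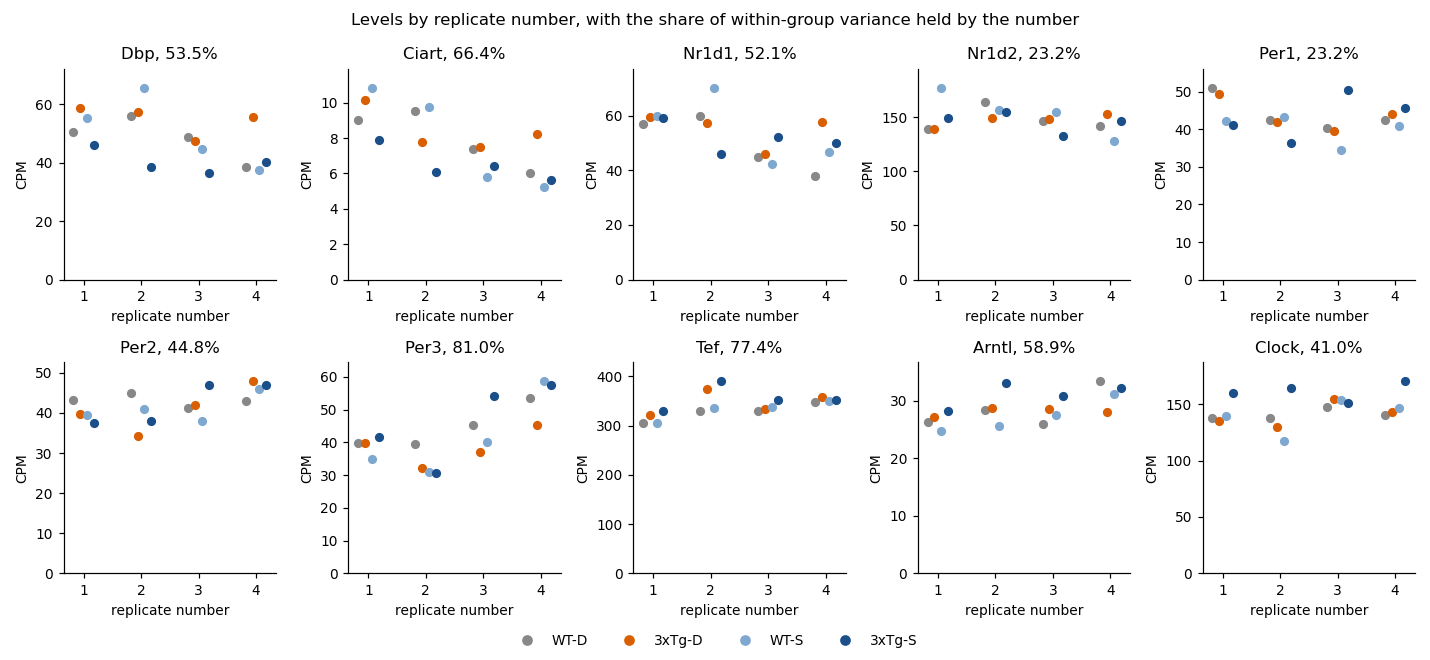
CPM of the 10 genes against the replicate number of the mouse, 1 point per mouse, coloured by group. Titles give the share of the variance within groups that lies between numbers, from 23.2% (Per1, Nr1d2) to 81.0% (Per3). Replicate numbers carry no order.

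The wider clock list held 20 further genes, among them the repressors Cry1 and Cry2, the receptors Rora and Rorb, the bZIP factors Nfil3 and Hlf and the kinases Csnk1d and Csnk1e. All 20 were tested, and 0 of 20 were DEGs in any of the 6 tests by edgeR or by DESeq2, with edgeR's unadjusted p under 0.05 for 1 in 3xTg-D vs WT-D, 1 in 3xTg-S vs WT-D and 0 in the other 4 tests. The shares over all genes were 12.6% and 13.1% in the first and second of these, so 1 of 20 was below the background. The first was Rorb, at 0.21 (adjusted p = 0.224), which encodes an activator of Arntl, and the second was Usp2, at -0.19 (adjusted p = 0.376), which encodes a deubiquitinase. In 3xTg-S vs 3xTg-D the 20 genes had a median log2 fold change of 0.04, and the highest was that of Arntl2, at 0.43, which did not pass the threshold. Their r with Dbp ranged from -0.41 to 0.83 with a median of -0.02. The highest was Bhlhe41 (0.83), which encodes a repressor of CLOCK and BMAL1 and is itself switched on through E-boxes. Hlf, the third PAR bZIP gene, had an r of -0.21 with Dbp and 0.48 with Arntl, the same signs as Tef. Csnk1e (0.68) and Csnk1d (0.60), which encode the casein kinases that mark PER proteins for decay, had the highest r with Arntl.

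Of 14459 genes with at least 1 CPM, Nr1d1 ranked 2 and Ciart ranked 3 by their r with Dbp over the 16 mice. The others of the highest 5 were Gm7125 (0.90), Gm5535 (0.86) and Ufsp1 (0.85), and the lowest 5 were Trpa1 (-0.86), Kif27 (-0.85), Plch1 (-0.83), Kmt5b (-0.83) and Ipo8 (-0.83). Gm7125, Gm5535 and Trpa1 averaged 1.23, 1.41 and 1.25 CPM, so their values rest on few reads. Arntl ranked 45 from the lowest, Per3 344 and Clock 406. Each group's mean was subtracted before r was taken. Ranks are given as a description, since genes are not independent.

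Genes that respond to temperature, glucocorticoids and neuronal activity, which also vary over the day, were set beside Dbp. Cirbp, a cold-inducible RNA-binding protein gene, had r = 0.71 with Dbp and differed between 3xTg-S and 3xTg-D by -0.37 (edgeR adjusted p = 0.722) and between 3xTg-S and WT-D by -0.34 (adjusted p = 0.144), of which the second passed the unadjusted threshold. Rbm3, the other cold-inducible gene, had r = 0.16. Sgk1, which glucocorticoids induce, had r = 0.79 with Dbp and a 3xTg-S vs 3xTg-D log2 fold change of -0.06 (adjusted p = 0.895). The other glucocorticoid targets ranged from -0.46 (Zbtb16) to 0.54 (Pdk4), with -0.05 for Fkbp5. The 8 activity genes ranged from -0.47 (Arc) to 0.31 (Junb), with 0.09 for Fos and -0.12 for Egr1. Among these 16 genes, 1 was a DEG in 3xTg-S vs WT-D (Cirbp), near the 5.69% of all genes, and 2 were DEGs in 3xTg-D vs WT-D (Nr4a1 and Pdk4), where 4.91% of all genes were.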

How the data were processed

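Hippocampal RNA of 16 mice was sequenced, 1 library per mouse. According to the submitters' processing notes and the study's methods, the authors trimmed reads with Trimmomatic 0.35, aligned them with STAR 2.5.1b to GRCm38 with Gencode M23 and deposited the raw counts that STAR gave for each gene, which are not normalized. Strand and molecular identifier handling are not given in the sources used here. The 4 summary lines of the table were left out of library sizes. Libraries of a group differed by more than sampling noise (chi-square over genes divided by its degrees of freedom, 3.80 to 45.5).

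Counts were analysed with R 4.3.3 and edgeR 4.0.16. Genes were filtered with filterByExpr (minimum count 10, total 15), which left 16475 of the 33942 with a count, and library sizes were scaled with TMM factors. Pairs of groups were fitted separately with edgeR's two-sided quasi-likelihood test. DEGs had an unadjusted p of at most 0.01 (the study's threshold), with Benjamini-Hochberg adjustment over all tested genes. The interaction was fitted to all 16 mice. Intervals used the standard error and moderated degrees of freedom of that test. P-values measure the spread between these mice.

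Correlations and variance shares used log2 CPM (prior count 2) and two-sided exact permutation of mice within groups (331776 and 13824 arrangements, numpy 2.4.6). Adjustment over the 8 relations and the 10 members alone, as first planned, was replaced by adjustment over all tested genes. TPM used exon lengths of Gencode M21, on the same build, for 55154 genes.

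The 10 members and all lists were chosen with earlier results of these data known. One allele of the line and one gene of the wider list are not reported here by name. Named genes were the members, any genes of the wider list that were DEGs, and the 5 genes with the highest and the 5 with the lowest r with Dbp. Rorb, Usp2 and the other genes named beside them were chosen after their values were seen. Replicate numbers come from the labels, which describe no pairing. The correlation across genes of the deviations of same-numbered mice averaged 0.217 in WT-S vs WT-D, where all 4 pairs were above 0.1 (lowest 0.114). It averaged 0.041 to 0.241 in the other comparisons, where at least 1 pair was below 0.1. For mice of different numbers it averaged -0.08 to -0.01. In WT-S vs WT-D and in 3xTg-S vs WT-D, 7 of 8 mice correlated best with the mouse of their own number. It was 6 of 8 in 3xTg-S vs WT-S and 3 of 8 in 3xTg-D vs WT-D. In 3xTg-S vs 3xTg-D, where Dbp passed adjustment with the block, it was 4 of 8, and the lowest same-numbered r was 0.016.

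Alternatives were DESeq2 1.42.0 (likelihood ratio test), median-ratio size factors, no filter, a single fit to all 16 mice, the replicate block, the share of reads outside genes as covariate, an adjusted threshold, another prior count, rank correlation, subsets of mice, and leaving out single mice. The fits and exact tests were tested on simulated data.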

Additional observations from a re-analysis of the deposited data

Results flagged for a closer look

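Nr1d1 in 3xTg-D had 1 mouse far from the others. Mouse 3 had 45.9 CPM, while the other 3 had 57.5 to 59.6 CPM, and the gap was 0.847 of the group's range. The 40 groups of 4 mice (10 genes in 4 groups) were examined in this way, and chance flags about 1 in 20 of them. Without this mouse, r of Arntl with Nr1d1 was -0.68, against -0.66 with it, and 2 members in place of 1 passed the threshold in 3xTg-S vs 3xTg-D, Dbp and Clock. The share of all genes that passed in that fit is not given.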

How the results depend on the processing

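Each group held 4 mice, and depth limits Ciart most, with as few as 96 reads in a mouse. Counts of members called at p of 0.01 changed as follows, from 1 in 3xTg-S vs 3xTg-D and in 3xTg-S vs WT-D and 0 elsewhere. The share of all genes that passed under these alternatives is not given, here or below, so such counts have no background beside them. With the replicate block, 3xTg-S vs 3xTg-D had 2 members, Dbp (adjusted p = 0.0225 in edgeR) and Ciart, 3xTg-S vs WT-D had 0, and the interaction had 1, Dbp at -0.50. Same-numbered mice had a mean r of 0.217 in WT-S vs WT-D, where the replicate block changed no call. That mean was 0.213 in 3xTg-S vs 3xTg-D and 0.176 in 3xTg-S vs WT-D, where the block changed the count. The labels describe no pairing in any comparison. Without the filter on low counts, 3xTg-S vs WT-S had 1 member and the interaction had 1, both Dbp, and Dbp (-0.29) took the place of Clock in 3xTg-S vs WT-D. At an adjusted p of 0.05, 3xTg-S vs 3xTg-D and 3xTg-S vs WT-D had 0, as the latter did with all 16 mice in one fit. DESeq2, median-ratio size factors and the covariate changed no count of calls.

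Leaving out 1 mouse gave 1 to 2 members in 3xTg-S vs 3xTg-D (2 without 3xTg-D mouse 3, with Clock, without 3xTg-S mouse 1, with Ciart, or without 3xTg-S mouse 2, with Per3), 0 to 1 in 3xTg-S vs WT-S and in the interaction (1, Dbp, without WT-S mouse 4), and 0 to 1 in 3xTg-S vs WT-D (0 without WT-D mouse 1 or 2 or 3xTg-S mouse 1 or 4, and Dbp in place of Clock, at -0.38, without WT-D mouse 4). Dbp in WT-S vs WT-D turned to -0.10 with the share of reads outside genes as covariate and ran from -0.076 (without WT-S mouse 2) to 0.19 when a mouse was left out, with the sign also turned without WT-D mouse 4, at -0.03.

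Relations of Arntl with p of 0.01 or less went from 3 to 0 without the 2 mice farthest from the median of Arntl, in WT mice only and in 3xTg mice only, and ranged from 0 to 3 when a mouse was left out. The r of Arntl with Per2 was -0.32 after the replicate block, and in 3xTg mice only it was -0.21 with Per3 and 0.24 with Nr1d2, each the opposite sign of the value over all mice. The cause was not tested. The count of 2 members with variance held by replicate number was 2 under median-ratio size factors and a prior count of 0.5, and leaving out a mouse was not run for it. Of 127 single values under settings other than leaving out a mouse, 103 kept their direction and side of the threshold, as did 204 of 232 when a mouse was left out.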
